A study of Mus musculus with 10 samples.

Results

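Macrophages that present antigen to T cells also carry surface molecules that either help or restrain the responding T cell. The transcripts of 10 such genes were compared between metastasis-associated macrophages (MAMs), sorted from lung metastases of a mouse breast cancer model, and resident alveolar macrophages (RAMs), sorted from normal lungs. The genes were taken by name as Cd274, Pdcd1lg2, Cd80, Cd86, Icosl, Cd276, Havcr2, Lgals9, Ido1 and Pvr, 10 of the 24538 genes in the count tables. Havcr2 encodes a receptor and Ido1 an enzyme, and the other genes encode ligands. Of the 10, 9 reached a mean of 1 FPKM (a fragment level scaled for transcript length and sequencing depth) in either group and entered the test, all of them with a mean above 1 FPKM in both groups. Ido1 did not reach this level.

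Each group had 5 libraries of total RNA from FACS-sorted macrophages of wild type C57BL6/J mice aged 8 to 10 weeks. MAMs were CD45+F4/80+LY6C-MRC1+ cells with high forward scatter that were CD11B+CD11C-, from metastases under 1 mm in diameter that had grown from E0771-LG cells, a mouse mammary tumour line, injected into the tail vein of female mice. Each MAM sample held metastases dissected and pooled from 2 to 4 mice. RAMs were the CD11B-CD11C+ subset of the same macrophage gate from normal lungs. Both tissues were digested in the presence of the transcription inhibitors alpha-amanitin and actinomycin D. Because the gate and the tissue change together between the groups, an effect of metastasis and a difference between macrophage subsets cannot be told apart.

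A T cell needs a costimulatory signal beside the antigen signal, and CD80 and CD86 on the presenting cell give it through CD28, while the same pair also binds the inhibitory receptor CTLA-4. PD-L1 (Cd274) and PD-L2 (Pdcd1lg2) bind PD-1 on T cells and dampen their response, and interferon-gamma is the best known inducer of PD-L1. TIM-3 (Havcr2), with galectin-9 (Lgals9) among its proposed ligands, and TIGIT, with PVR (CD155) as its main ligand, form further inhibitory axes. IDO1 acts through metabolism, by breaking down tryptophan.

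The libraries held 55391447 to 87523247 counts on genes in MAMs and 50746305 to 72150650 in RAMs. The sort markers followed the labels. Itgam, which encodes CD11B, lay at 5848 to 6844 CPM (counts scaled to the library total) in MAMs and 59.5 to 72.2 CPM in RAMs, and Itgax, which encodes CD11C, lay at 145 to 240.0 CPM in MAMs and 880 to 1110 CPM in RAMs. Of 7 general macrophage markers all were tested, 4 were higher and 3 were lower in MAMs at an adjusted p under 0.05 by edgeR. Of the 11571 genes tested, 28.9% were higher and 27.3% were lower. Their summed level was 22007 to 28366 CPM in MAMs and 30711 to 37906 CPM in RAMs. Lyz2 carried these sums, at a mean of 20655 CPM in MAMs and 29172 CPM in RAMs. Without it (left out after its values were seen) the ranges overlapped, at 5103 to 6025 CPM in MAMs and 4833 to 5210 CPM in RAMs. Of 6 alveolar macrophage markers, 5 were lower in MAMs by the test, against 27.3% of all genes tested, and Marco was not. Their summed level was 252 to 547 CPM in MAMs and 8659 to 11434 CPM in RAMs. No library stood apart from its group, with median correlations to the other libraries of the group of 0.951 to 0.956 in MAMs and 0.965 to 0.973 in RAMs.

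The costimulatory and checkpoint genes did not move as one block. By edgeR's quasi-likelihood test at an adjusted p under 0.05, 6 of the 9 tested genes were higher in MAMs and 3 were lower, against 28.9% and 27.3% (together 56.2%) of the 11571 genes tested. With a fold change over 2 required as well, which is what is meant below by a called gene, 5 were higher (Cd80, Cd86, Cd276, Lgals9 and Pvr) and 1 was lower (Pdcd1lg2), against 15.3% and 15.1% (together 30.3%) of all genes tested. In 6 genes every MAM library lay above every RAM library and in 2 every MAM library lay below, against 23.7% and 21.2% (together 44.9%) of all genes, and Icosl was the gene whose groups overlapped. The median log2 fold change of MAMs over RAMs was 1.73 over the 9 genes and -0.02 over all genes tested. In sorted pools of cells, fewer cells that express a gene and less RNA per cell cannot be told apart.

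**Figure D1:**
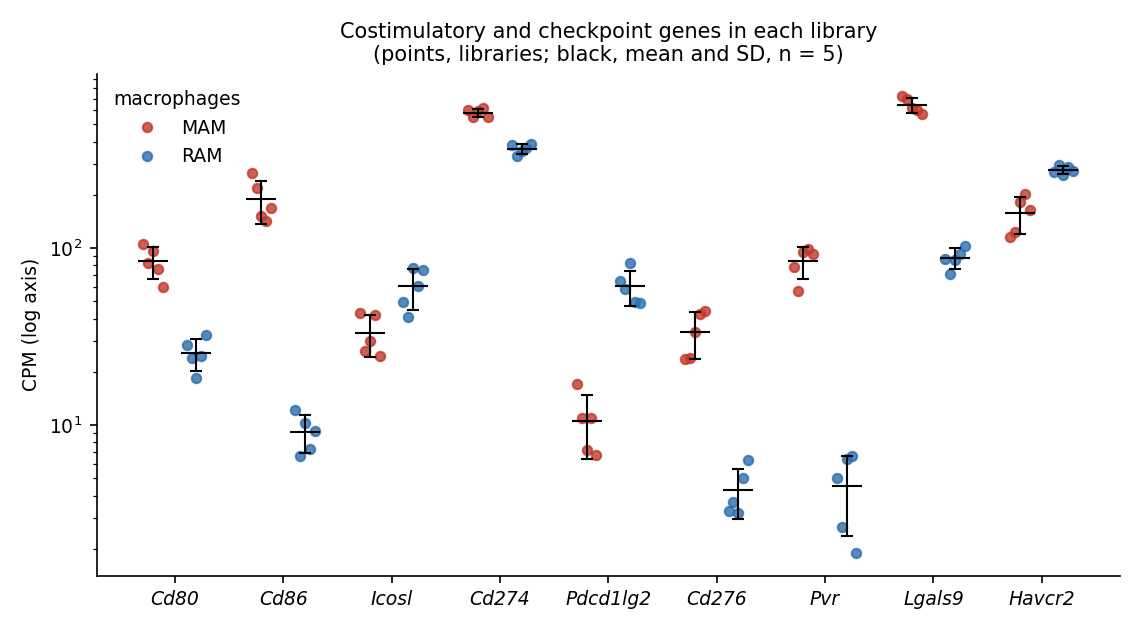
CPM on a log axis of the 9 tested genes in the 5 MAM (red) and 5 RAM (blue) libraries, with black bars for the mean and SD. The groups are farthest apart for Cd86 and Pvr, Pdcd1lg2 is lower in all 5 MAM libraries, and the points of Icosl overlap.

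The 2 ligands of PD-1 moved in opposite directions. Cd274 lies at chr19:29367455-29388095 on the plus strand (GRCm38), and Pdcd1lg2 follows it at chr19:29410919-29471161 on the same strand, 22.8 kb downstream with 0 annotated genes between them. The sequences just before the start of both genes are shown because these neighbours differed in direction. Each is the 250 bases upstream of the RefSeq start, read on the gene's strand, at chr19:29367188-29367437 for Cd274 and chr19:29410669-29410918 for Pdcd1lg2 (GRCm38.p6).
Cd274: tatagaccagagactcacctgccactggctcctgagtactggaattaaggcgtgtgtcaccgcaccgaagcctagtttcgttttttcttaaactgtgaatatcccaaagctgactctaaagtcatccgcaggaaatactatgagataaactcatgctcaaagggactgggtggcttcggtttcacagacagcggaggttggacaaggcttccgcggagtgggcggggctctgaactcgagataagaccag
Pdcd1lg2: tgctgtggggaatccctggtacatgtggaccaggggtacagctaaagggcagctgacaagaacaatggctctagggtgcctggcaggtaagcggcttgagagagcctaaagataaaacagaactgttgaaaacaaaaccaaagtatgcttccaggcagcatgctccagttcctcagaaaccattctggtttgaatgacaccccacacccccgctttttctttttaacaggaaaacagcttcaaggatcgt
Neither window of 300 bases, these 250 bases and the first 50 of the transcript, held the letters of the core of an interferon-stimulated response element (GAAANNGAAA on either strand) or of a gamma-activated site (TTCNNNGAA, which reads the same on both strands). These letters were present in 3.44% and 8.30% of the 32851 mouse promoter windows of this length.

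Cd274, which encodes PD-L1, stood at 599.6, 553, 597, 616 and 548 CPM in MAM replicates 1 to 5. The RAM replicates held 383, 331, 351, 368 and 387 CPM. Every MAM library was above every RAM library, and the gene was among the most abundant in both groups, at 148 ± 8.66 FPKM in MAMs and 93.1 ± 5.79 FPKM in RAMs (SD, n = 5). It differed by a log2 fold change of 0.68 (SE 0.0681, adjusted p = 5.77e-07 by edgeR), a fold of 1.60 that passed the test and stayed under 2-fold. An antisense gene, AC119228.1, overlaps it, and since the strand setting of the counting is not given in the sources used here, their reads cannot be told apart.

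Pdcd1lg2, which encodes PD-L2, was the gene that fell most. It held 17.1, 10.9, 7.20, 10.9 and 6.79 CPM in the MAM replicates and 65.1, 58.8, 82.0, 49.6 and 48.8 CPM in the RAM replicates. The lowest RAM library was well above the highest MAM library. The level was 5.75-fold higher in RAMs, with a log2 fold change of -2.52 (SE 0.244, adjusted p = 3.68e-07 by edgeR). The antisense gene A930007I19Rik overlaps this locus, with the same limit on strand.

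CD80 and CD86, the pair that engages CD28 and CTLA-4, were both higher in MAMs, and by very different amounts. Their genes lie on chromosome 16, 1.8 Mb apart, Cd80 at chr16:38455561-38496335 on the plus strand and Cd86 at chr16:36603869-36666081 on the minus strand. Cd86 was measured at 265, 218, 152, 142 and 168 CPM in the MAM replicates. The RAM replicates held 12.2, 6.73, 10.3, 7.34 and 9.29 CPM, from 352 to 713 counts a library. The log2 fold change was 4.37 (SE 0.213, adjusted p = 1.36e-10 by edgeR) or 20.6-fold, which could not be ranked against that of Pvr below, since the gap between the estimates was under either standard error. MAM replicates 1 and 2 had the highest values, and the lowest MAM library, at 142 CPM, lay far above the highest RAM library, at 12.2 CPM.

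Cd80 was at 106, 82.4, 96.1, 76.3 and 60.6 CPM in the MAM replicates. In RAMs it was at 28.4, 23.8, 18.5, 24.6 and 32.2 CPM. The groups were apart, with a log2 fold change of 1.73 (SE 0.170, adjusted p = 4.63e-07 by edgeR) or 3.31-fold. The difference was 2.02 on the log2 scale over replicates 1 to 3 and 1.27 over replicates 4 and 5, which stand in separate blocks of columns in the authors' FPKM table. Other members also differed between these blocks, such as Lgals9 at 3.07 and 2.58 and Pvr at 4.08 and 4.72.

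Icosl, the ligand of the costimulatory receptor ICOS (chr10:78069302-78083913, plus strand), was lower in MAMs with overlapping groups. The MAM replicates held 42.8, 26.2, 29.9, 42.0 and 24.5 CPM. The RAM replicates held 49.4, 40.9, 77.4, 61.2 and 74.8 CPM. RAM replicate 2 lay below MAM replicates 1 and 4. The log2 fold change was -0.88 (SE 0.203, adjusted p = 0.00177 by edgeR), which passed the test at 1.84-fold. Under upper-quartile scaling it reached -1.04 (adjusted p = 0.000427 by edgeR) and counted as called, and that scaling also moved the median of all genes from -0.02 to -0.18.

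Cd276 encodes B7-H3, a B7 family member that is broadly expressed and mostly described as inhibitory (chr9:58524298-58555437, minus strand). It was at 23.5, 23.9, 33.7, 42.6 and 43.8 CPM in the MAM replicates and at 3.25, 3.68, 3.19, 5.03 and 6.37 CPM in the RAM replicates. All MAM libraries were above all RAM libraries, and in both groups replicates 4 and 5 were the highest. The log2 fold change was 2.96 (SE 0.263, adjusted p = 1.45e-07 by edgeR) or 7.80-fold. It was 2.97 over replicates 1 to 3 and 2.92 over replicates 4 and 5. The annotated gene Gm10657, on the plus strand, overlaps this locus, with the same limit on strand as for Cd274.

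Pvr encodes CD155, the ligand that TIGIT, CD96 and the activating receptor CD226 share (chr7:19903578-19921160, minus strand). Its values were 77.7, 57.1, 94.6, 98.4 and 92.2 CPM in the MAM replicates. In the RAM replicates they were 5.00, 2.66, 6.42, 6.72 and 1.90 CPM, from 89 to 322 counts a library. The groups were far apart, with a log2 fold change of 4.21 (SE 0.319, adjusted p = 2.30e-08 by edgeR) or 18.5-fold, and the relative spread among RAM libraries, 48.0% of the mean, was the largest among the tested members. The pseudogene Gm16184 and the antisense gene Gm16251 overlap this locus.

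Galectin-9 and TIM-3 moved apart. Lgals9 (chr11:78962974-78984946, minus strand) was the most abundant of the 10 genes in MAMs, and its upstream sequence is shown because it was the only one of the 7 members with a promoter window in the RefSeq table that held an interferon-stimulated response element core. The 250 bases before the RefSeq start lie at chr11:78984925-78985174 (GRCm38.p6) and are read on the gene's strand, with the match in capitals.
Lgals9: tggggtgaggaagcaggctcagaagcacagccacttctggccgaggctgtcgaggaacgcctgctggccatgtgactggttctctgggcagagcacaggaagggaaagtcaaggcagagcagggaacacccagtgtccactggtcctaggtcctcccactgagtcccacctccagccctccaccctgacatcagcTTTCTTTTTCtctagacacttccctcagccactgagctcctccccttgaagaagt
The match TTTCTTTTTC begins 55 bases before the start. A second one, TTTCTGTTTC, begins 15 bases after the first transcribed base. A match of letters is a description of the sequence and not a bound site. None of the 7 windows held a gamma-activated site.

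Lgals9 stood at 719.7, 696, 619.8, 600.0 and 574 CPM in the MAM replicates. The RAM replicates held 86.8, 71.2, 85.4, 92.7 and 103 CPM. The lowest MAM library was far above the highest RAM library. The log2 fold change was 2.87 (SE 0.105, adjusted p = 5.33e-12 by edgeR) or 7.30-fold, the smallest adjusted p among the members. In FPKM its mean level lay at percentile 98.7 of all tested genes in MAMs and at percentile 92.0 in RAMs.

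Havcr2, the TIM-3 receptor gene (chr11:46454935-46481255, plus strand), was lower in MAMs. It held 115, 123, 181, 203 and 163 CPM in the MAM replicates and 267, 294, 257, 287 and 274 CPM in the RAM replicates. The groups did not overlap, and MAM replicates 1 and 2, the highest for Cd86, were the lowest here. The log2 fold change was -0.81 (SE 0.134, adjusted p = 9.91e-05 by edgeR), which passed the test at 1.75-fold.

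Ido1 (chr8:24584136-24597009, minus strand) was at or near 0. The 5 RAM libraries had 0 counts each, which allows up to 0.0450 to 0.0639 CPM a library at 3 counts. The MAM replicates had 0, 6, 0, 0 and 1 counts, of which the 6 in replicate 2 amount to 0.112 CPM. No fold is given for it, and a difference was not detectable at this depth. When all genes were tested without a filter on low values, its adjusted p was 0.124 by edgeR.

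**Figure D2:**
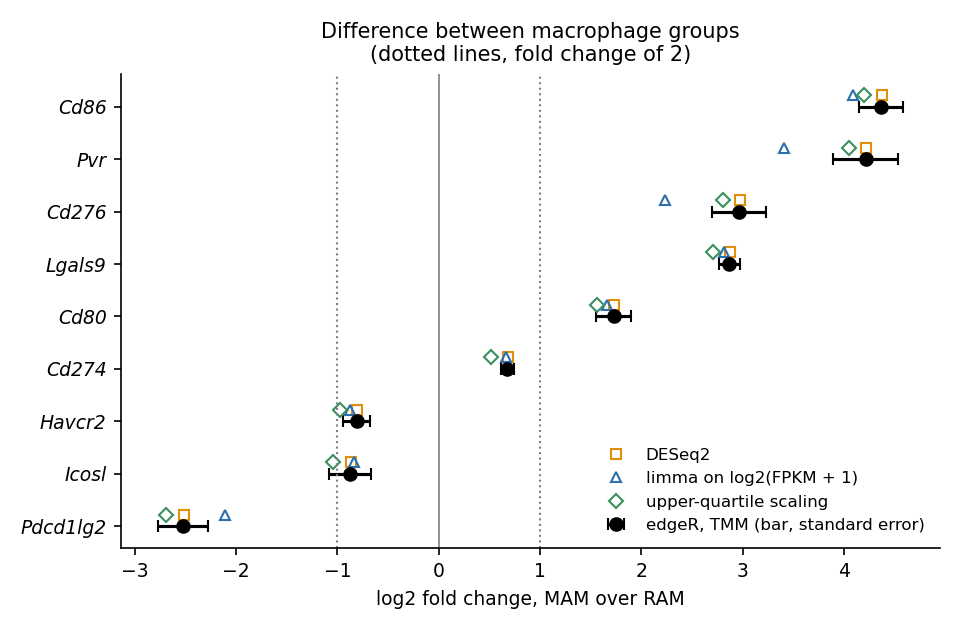
Log2 fold change of MAMs over RAMs for the 9 tested genes, with the standard error of the edgeR fit in black and the values from DESeq2, limma on log2(FPKM + 1) and upper-quartile scaling as open symbols. All 4 estimates share their direction for each gene, and Havcr2 and Cd274 lie within a fold of 2 in all of them, while Icosl passes it at -1.04 under upper-quartile scaling.

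Levels were compared between genes on the FPKM scale, since it divides by transcript length. In MAMs the order was led by Lgals9 at 458 ± 42.6 FPKM and Cd274 at 148 ± 8.66 FPKM, each apart from the next gene in every library. Cd86 at 61.3 ± 17.2, Havcr2 at 51.8 ± 12.1, Cd80 at 36.4 ± 7.71 and Pvr at 24.8 ± 5.00 FPKM followed, and each neighbouring pair of these overlapped. Icosl at 12.05 ± 3.18 and Cd276 at 11.1 ± 3.48 FPKM also overlapped, and Pdcd1lg2 at 2.48 ± 1.25 FPKM was below both (SD, n = 5).

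In RAMs the order was another one. Havcr2 at 93.9 ± 5.22 and Cd274 at 93.1 ± 5.79 FPKM led together and could not be ranked, and Lgals9 at 64.6 ± 8.87 FPKM came below them. Icosl at 22.4 ± 6.07, Pdcd1lg2 at 13.7 ± 3.49 and Cd80 at 10.8 ± 2.68 FPKM were next, with neighbours that overlapped. Cd86 at 2.62 ± 0.790, Cd276 at 1.52 ± 0.437 and Pvr at 1.49 ± 0.746 FPKM were the lowest above Ido1 and overlapped as well (SD, n = 5). Cd86 and Pvr, at the bottom of the order in RAMs, stood in the middle of it in MAMs.

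The 10 genes summed to 806 ± 54.3 FPKM in MAMs and 304 ± 16.9 FPKM in RAMs (SD, n = 5). Lgals9 made up 56.8 ± 2.35% of this sum in MAMs and 21.2 ± 1.79% in RAMs. Cd274 took 18.4 ± 1.17% and 30.6 ± 1.05%, so its share was smaller in MAMs although its level was higher. The share of Havcr2 was 6.48 ± 1.72% in MAMs and 31.0 ± 3.06% in RAMs, that of Cd86 7.56 ± 1.76% and 0.863 ± 0.261%, and that of Pdcd1lg2 0.303 ± 0.134% and 4.52 ± 1.22% (SD, n = 5). The sum of the MAM libraries ranged from 725 to 874 FPKM and that of the RAM libraries from 279 to 326 FPKM.

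**Figure D3:**
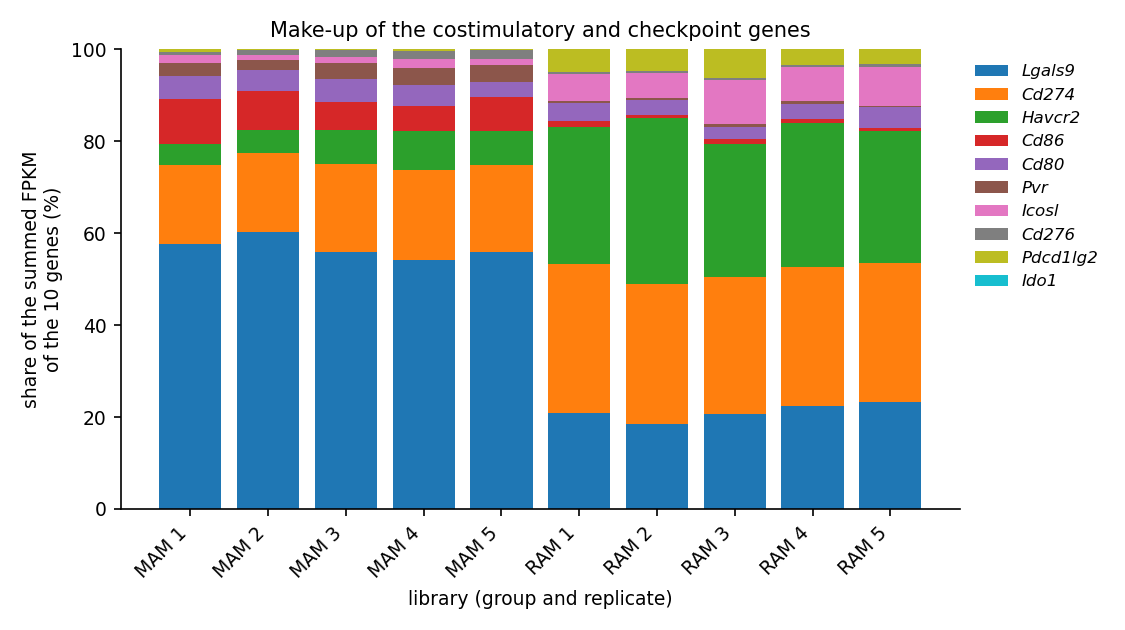
Share in percent of the summed FPKM of the 10 genes taken by each gene in each of the 10 libraries. Lgals9 takes the largest part of each MAM bar, while Havcr2, Cd274 and Lgals9 split most of each RAM bar.

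The balance within 3 pairs was tested on log2 ratios of FPKM, with 0.1 added to each value, by an exact two-sided permutation test over the libraries. Each of the 3 gave p = 0.00794 (Benjamini-Hochberg adjusted over the 3, p = 0.00794), the smallest value that 5 against 5 libraries allow in this exact test. For Cd274 over Pdcd1lg2 and Lgals9 over Havcr2 this outcome was fixed by the single-gene results. In both pairs the first gene lay higher and the second lower in every MAM library than in any RAM library. The single-gene ranges fixed the outcome for Cd86 over Cd80 too. In MAMs the lowest Cd86 and the highest Cd80 were both 44.8 FPKM. In RAMs the highest Cd86 was 3.65 FPKM and the lowest Cd80 was 7.78 FPKM. Any pairing of values within these ranges puts every MAM ratio above every RAM ratio. The tests of the 3 pairs therefore add no support to the single-gene results. For Cd86 over Cd80, the 2 CD28 ligands, the mean log2 ratio was 0.74 ± 0.399 in MAMs and -2.02 ± 0.602 in RAMs (SD, n = 5), so the more abundant transcript was Cd86 in all 5 MAM libraries and Cd80 in all 5 RAM libraries. For Cd274 over Pdcd1lg2, the 2 PD-1 ligands, it was 5.96 ± 0.611 in MAMs and 2.79 ± 0.390 in RAMs, geometric mean ratios of 62.4 and 6.93, so that PD-L1 transcripts led in both groups. For Lgals9 over Havcr2 it was 3.17 ± 0.456 in MAMs and -0.55 ± 0.245 in RAMs, with the sign turned in each library. The differences of MAMs minus RAMs were 2.76, 3.17 and 3.72 on the log2 scale.

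**Figure D4:**
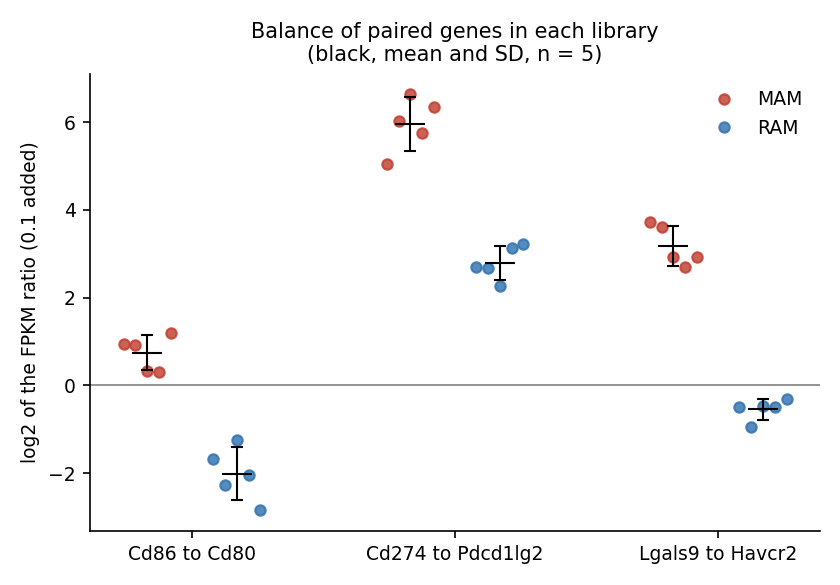
Log2 ratio of FPKM (0.1 added to each) within 3 pairs of genes in the 5 MAM (red) and 5 RAM (blue) libraries, with mean and SD in black. The Cd86 to Cd80 and Lgals9 to Havcr2 ratios lie above 0 in each MAM library and below 0 in each RAM library, and the Cd274 to Pdcd1lg2 ratio lies above 0 in all 10.

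Beyond these 10, related genes were read from lists of the same pathways. The list of the interferon-gamma pathway and PD-L1 stabilisers holds signalling genes of that pathway and the CMTM proteins that keep PD-L1 on the surface. Its signalling genes include the inhibitor Socs1 and are not inducers of PD-L1 alone. In this list 10 of 11 tested genes were higher in MAMs, 0 were lower and 1 did not pass, with 6 called and a median log2 fold change of 1.21. Of all genes tested 28.9% were higher and 15.3% were called higher, with a median of -0.02, and all 11 genes of the list averaged over 1 FPKM in both groups. Socs1, a feedback inhibitor of JAK signalling, had a log2 fold change of 3.13 (SE 0.789, adjusted p = 0.00333 by edgeR) and held only 2 to 126 counts a library in RAMs. Irf1, the transcription factor through which interferon-gamma reaches the PD-L1 gene, rose by 2.36 (SE 0.172, adjusted p = 1.48e-08 by edgeR). Ifngr1, a receptor chain and the most abundant of the list in RAMs, was the one that did not pass, at 57.9 FPKM in MAMs and 64.1 FPKM in RAMs (adjusted p = 0.281 by edgeR).

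Costimulators of the TNF superfamily were mostly near 0 in one group. Of 9 genes 6 were tested, 5 were called higher and 1 was called lower, with a median difference of 5.82 on the log2 scale. The 5 averaged below 1 FPKM in RAMs and the 1 below 1 FPKM in MAMs, so each entered the test through the group where it is high, and the counts and the median are given as a description. Cd40, the receptor through which helper T cells license presenting cells, lay at 36.5 to 47.2 CPM in MAMs and 0.334 to 0.767 CPM in RAMs, with a log2 fold change of 6.39 (SE 0.245, adjusted p = 8.85e-12 by edgeR). Tnfrsf14 (HVEM), the partner of BTLA and LIGHT, lay at 15.6 to 24.6 CPM in MAMs against 0.0601 to 0.291 CPM in RAMs and differed by 6.77 (SE 0.375). Tnfsf18, the ligand of GITR, was the gene called lower, at -2.82 (SE 0.806, adjusted p = 0.00770 by edgeR), from 0.204 FPKM in MAMs and 1.22 FPKM in RAMs.

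Nectins and adhesion ligands, the wider family of PVR, were higher in MAMs in 7 of the 7 tested genes of 8, with 5 called and a median log2 fold change of 1.66. For 2 of them, Cadm1 and Nectin1, the mean in RAMs was below 1 FPKM and they entered through MAMs alone. Of the 5 above 1 FPKM in both groups, 5 were higher and 3 were called, against 28.9% and 15.3% of all genes. Cadm1, a ligand of CRTAM, rose by 5.45 on the log2 scale (SE 0.661, adjusted p = 4.29e-06 by edgeR) from 2 to 29 counts a library in RAMs to 300 to 1132 in MAMs. Icam2, a ligand of LFA-1, rose by 3.35 (SE 0.374). Cd48, the ligand of CD244 and CD2 and the most abundant of the list in both groups, was 94.8 FPKM in MAMs and 77.6 FPKM in RAMs, with a log2 fold change of 0.38 (SE 0.0861, adjusted p = 0.00162 by edgeR).

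Among TIM relatives, galectins and TIM-3 partners, 5 of the 7 tested genes of 9 were higher, 1 was lower and 1 did not pass, with 2 called higher and a median of 0.90. Timd4 entered through MAMs alone, and of the 6 genes above 1 FPKM in both groups 4 were higher and 1 was called higher, against 28.9% and 15.3% of all genes. Timd4, a phosphatidylserine receptor of resident macrophages, rose by 6.92 (SE 0.483, adjusted p = 8.66e-09 by edgeR), with MAM libraries spread from 40.3 to 272 CPM and RAM libraries from 0.849 to 1.26 CPM. Ceacam1, a proposed TIM-3 partner, rose by 4.92 (SE 0.177), from 9.80 ± 2.37 CPM in RAMs to 296 ± 39.5 CPM in MAMs (SD, n = 5). Lgals3 was the most abundant, at 705 FPKM in MAMs and 402 FPKM in RAMs, with a log2 fold change of 0.83 (SE 0.0811). Of the 6 B7 relatives and butyrophilins, Vsir, which encodes the inhibitory ligand VISTA, was the only one tested and was called higher at 1.10 (SE 0.149, adjusted p = 1.46e-05 by edgeR), at 177 ± 32.6 CPM in MAMs and 82.7 ± 17.2 CPM in RAMs (SD, n = 5).

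Tryptophan and arginine catabolism, the pathways by which myeloid cells starve T cells of amino acids, was mixed. Of 13 genes 11 were tested, of which 5 were higher, 2 were lower and 4 did not pass, with 4 called higher and 2 called lower and a median of 0.97. Of the 8 genes above 1 FPKM in both groups 3 were higher and 2 were lower, against 28.9% and 27.3% of all genes, and 2 were called each way, against 15.3% and 15.1%. Arg1 (arginase) stood at 1123 to 1661 CPM in MAMs and 19.6 to 22.2 CPM in RAMs, a log2 fold change of 6.03 (SE 0.125, adjusted p = 9.06e-15 by edgeR). Nos2 (inducible nitric oxide synthase) stood at 9.02 to 19.9 CPM against 0.0342 to 0.450 CPM, at 5.95 (SE 0.507). Kynu (kynureninase), downstream of IDO1, was the most abundant of the list in RAMs and was lower in MAMs by the test, at -4.96 (SE 0.295, adjusted p = 1.37e-09 by edgeR). Ido2 and Tdo2, the other enzymes that open the tryptophan pathway, did not reach the filter.

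**Figure D5:**
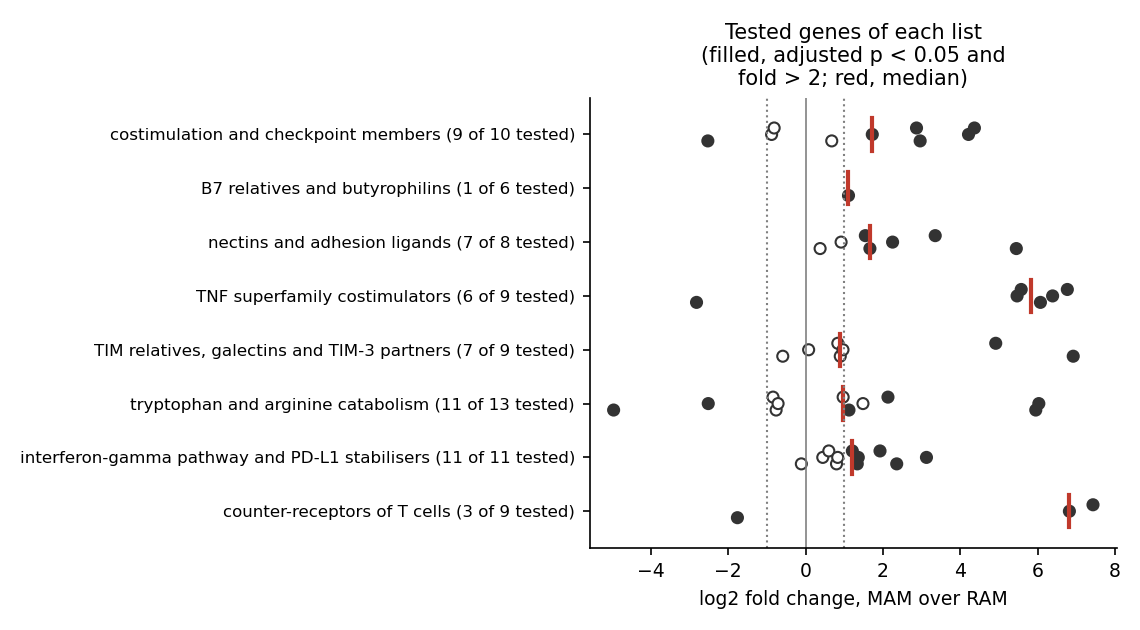
Log2 fold change of MAMs over RAMs for each tested gene of the 10-gene set and of 7 related lists. Filled points passed an adjusted p of 0.05 with a fold over 2 and red lines are medians, which range from 0.90 for the TIM relatives to 6.82 for the counter-receptors, of which only 3 were tested.

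The receptors of these ligands are mostly found on T cells and natural killer cells, and 3 of 9 reached the filter. Each of these passed it only in the group where it is high, so their values are given as a description. Pdcd1 (PD-1) was at 0.179 to 6.41 CPM in MAMs and at 0 to 2 counts a library in RAMs (adjusted p = 2.48e-05 by edgeR). Cd226, the activating receptor for PVR, was at 24.7 to 91.7 CPM in MAMs and 0.345 to 0.952 CPM in RAMs, a log2 fold change of 6.82 (SE 0.410, adjusted p = 1.54e-09 by edgeR). Tigit was lower, at -1.76 (SE 0.694, adjusted p = 0.0420 by edgeR), from 2 to 55 counts a library in MAMs and 28 to 122 in RAMs. Beside these, 9 T cell markers summed to 2.46 to 4.72 CPM in MAMs and 6.80 to 9.74 CPM in RAMs, with Zap70 at 0 in every MAM library. Lat carried that gap, and without it (left out after its values were seen) the other 8 came to 2.33 to 4.57 CPM in MAMs and 2.82 to 5.20 CPM in RAMs, which overlap. The part of T cells in the values of Pdcd1 and Cd226 was not tested.

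Markers of other cell types that could carry these ligands were summed beside them. The 8 dendritic cell markers came to 12.6 to 18.3 CPM in MAMs and 17.8 to 26.0 CPM in RAMs, and Siglech was at 0 in MAMs. Clec9a, at 1.01 CPM in MAMs and 19.4 CPM in RAMs, carried the RAM sum. Without it (left out after its values were seen) the other 7 summed higher in MAMs. They came to 11.5 to 17.7 CPM in MAMs against 1.85 to 4.93 CPM in RAMs, led by Fscn1 at 7.89 CPM against 0.243 CPM. Of the 7, Ccr7 and Fscn1 alone were tested. Both entered through MAMs alone and both were called higher, which is given as a description. The groups overlapped for Ccr7, which held 6 to 310 counts a library in MAMs (adjusted p = 0.0265 by edgeR). Flt3 and Siglech had lower means in MAMs, at 0.00362 and 0 CPM against 0.0331 and 0.268 CPM. The sum of the 7 moved in the direction of Cd80 and Cd86, and its part in those results was not tested. The 8 markers of epithelium and tumour came to 5.27 to 22.2 CPM in MAMs and 440 to 569 CPM in RAMs, with Cldn3 and Cldn4 at 0 in MAMs. Krt19, at 6.09 CPM in MAMs and 436 CPM in RAMs, and Epcam, at 0.652 and 76.8 CPM, made up nearly all of the RAM sum. Krt7, Krt8 and Krt18 were singled out after their values were seen. Their mean levels were 0.520, 1.48 and 1.81 CPM in MAMs and 0.124, 0.0453 and 0.119 CPM in RAMs. Of these Krt18 alone reached the test, which it did not pass (adjusted p = 0.0715 by edgeR). The MAM mean of Krt18 rested almost wholly on its highest library, at 8.84 CPM, while its lowest held 0 CPM. The 8 markers of stroma and endothelium summed to 42.2 to 95.7 CPM in MAMs against 2.17 to 12.3 CPM in RAMs, with Cldn5 at 0 in MAMs. The 5 that were tested were called higher, and all 5 entered through MAMs alone. They moved in the direction of Cd276, Pvr, Cadm1 and Icam2, and their part in those results was not tested. Alveolar epithelium markers, 5 genes, came to 0.996 to 12.5 CPM in MAMs and 21.6 to 43.2 CPM in RAMs. Neutrophil markers, 7 genes, came to 23.2 to 82.7 CPM in MAMs and 42.9 to 87.2 CPM in RAMs with Ly6g at 0 in RAMs. Mmp8, at 42.0 and 58.5 CPM, carried these sums. Without it (left out after its values were seen) the other 6 came to 3.76 to 18.0 CPM in MAMs and 1.71 to 3.98 CPM in RAMs. Of these 6, S100a8 and S100a9 alone were tested. Both were called higher, at 1.12 (adjusted p = 0.0353 by edgeR) and 3.47 (adjusted p = 0.0104 by edgeR), against 15.3% of all genes tested. The groups overlapped for S100a9. Ngp had a lower mean in MAMs, at 0.0859 CPM against 0.581 CPM. The B cell markers, 5 genes, came to 4.27 to 23.1 CPM in MAMs and 2.67 to 16.7 CPM in RAMs.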

How the data were processed

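Total RNA of 10 sorted samples was amplified with the Ovation RNA-Seq System V2 and sequenced as paired 100-base reads. Per the labels and the study's methods, the authors aligned reads with TopHat2 2.0.13 to mm10 and deposited raw counts per gene from HTSeq 0.6.1 and FPKM from Cufflinks 2.2.1. Whether reads or pairs were counted, and whether by strand, is not given in the sources used here. Counts that HTSeq did not assign to a gene, for whatever reason, were left out (54.6 to 58.3% in MAMs, 62.2 to 64.1% in RAMs). Groups came from the sample titles.

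Genes with a mean of at least 1 FPKM in either group (11571) were fitted with edgeR 4.0.16 (quasi-likelihood test, TMM factors, Benjamini-Hochberg adjustment) in R 4.3.3, checked on simulated counts. CPM were computed over the TMM-scaled total of tested genes. The standard error is the absolute log2 fold change over the root of F. Ratios used SciPy 1.17.1. Per the study's methods a sample was an individual mouse or a pool of metastases, so p-values measure the spread between such samples. Alternatives were DESeq2 1.42.0, limma 3.58.1 on log2 FPKM, other scalings and filters, a fold threshold in the test, a replicate block, 1% carry-over removed and each library left out. Limits at 0 counts (3 counts) cover counting error only.

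Beside the 10 genes, each list's 2 called genes with the largest change and the most abundant gene of each group were named, except 1 that is not reported here. Genes and lists were chosen with earlier results of these data known. Locations are from GENCODE M21 (GRCm38) and promoter windows from RefSeq (GRCm38.p6), which matched 7 of the 10 genes.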

Additional observations from a re-analysis of the deposited data

Results flagged for a closer look

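In 25 groups of 5 values examined, 1 library stood far from the others of its group, where chance gives about 1 in 20. It was Ido1 in MAM replicate 2, at 0.112 CPM against 0 to 0.0144 CPM in the other 4 MAM libraries, and it rests on 6 counts.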

How the results depend on the processing

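Under the 21 alternatives, the 5 genes called higher stayed 5 and the 1 called lower stayed 1, except that upper-quartile scaling called 2 lower, by adding Icosl at -1.04. No tested member changed direction. Cd86 and Pvr exchanged places in size without MAM replicate 1 (4.21 and 4.24), without MAM replicate 2 (4.31 and 4.32) and without RAM replicate 4 (4.29 and 4.39). Leaving out 1 library at a time gave 5 to 5 members higher, 1 to 1 lower, 1728 to 1763 of all genes higher and 1656 to 1736 lower. Testing against a fold of 2 called 1399 of all genes higher and 1112 lower, in place of 1766 and 1745, since its null holds every fold up to 2, and under it Cd274, Icosl and Havcr2 had an adjusted p of 1. Same-numbered libraries did not deviate together (correlations -0.04 to 0.03), which gives no sign of a pairing by number but cannot exclude it. With a replicate block 1753 of all genes were called higher and 1773 lower, with 5 and 1 members. The paired ratio differences under the block were unchanged at 2.76, 3.17 and 3.72, with an exact sign-flip p = 0.0625, the smallest that 5 pairs allow. Without 1 library they ranged from 2.55 to 2.95, 3.003 to 3.40 and 3.58 to 3.84, each with an exact permutation p = 0.0159. A covariate for replicates 1 to 3 against 4 and 5, chosen after seeing the data, left 5 and 1 members called. The lowest members, Ido1 in both groups and Pvr and Cd276 in RAMs, are those that depth limits most.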
